A study of Mus musculus with 6 samples.

Results

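The mouse potassium channel genes examined here are those whose symbol starts with Kcn and whose RefSeq accession is carried by a probe of the array, leaving out Kcnj1 and Kcnj10. There were 95 such genes with 131 probes, out of 20887 named genes on the array. The cells were ureteric bud derivatives, which form the collecting duct, sorted for GFP and tdTomato from newborn kidneys of salt-stressed C57BL/6 mice at postnatal day 1. The 3 WT pools (WT pools 1 to 3) carried Hoxb7cre+, R26RtdTomato and Bdkrb2+/+, and the 3 MUT pools (MUT pools 1 to 3) carried Hoxb7cre+, R26RtdTomato and Bdkrb2f/f. Both groups therefore share the Cre driver, the reporter and the salt stress, and differ in whether the bradykinin B2 receptor gene could be deleted. Hoxb7 Cre acts in the ureteric bud and its derivatives, so any loss of the gene is limited to that lineage. How many animals made up a pool is not stated in the labels. Each 2-colour array carried the RNA of 1 pool in Cy5 and that of WT pool 1 in Cy3, so every value below starts as a log2 ratio of a pool to WT pool 1 RNA. The probe of Bdkrb2 was well above background on 0 of 6 arrays, so the deletion itself could not be checked.

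Potassium channels let potassium ions pass down their gradient and set the membrane voltage of epithelial, muscle and nerve cells. In the distal nephron and collecting duct, basolateral inward rectifiers recycle the potassium that the sodium pump brings in, and apical channels secrete potassium into the urine. Pore-forming subunits fall into inward rectifiers (Kcnj), channels with a pair of pore domains (Kcnk), voltage-gated channels such as Kcna, Kcnb, Kcnc, Kcnd, Kcnh and Kcnq, and channels opened by intracellular calcium or sodium (Kcnma, Kcnn, Kcnt, Kcnu). Accessory subunits of the Kcne, Kcnab, Kcnip and Kcnmb families change the gating or the surface level of those pores.

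All 6 arrays lay on 1 slide, with WT pool 1 and the MUT pools in row 1 and WT pools 2 and 3 in row 2. Across the arrays 27022 to 31310 of 55681 probes were well above background in Cy5, a flag that the scanner software sets for each spot. MUT arrays had more such probes, 30818 to 31310, than WT arrays, 27022 to 28643. With 6 arrays, precision is limited by their number. All 8 ureteric lineage markers were measured, of which 6 were lower in MUT pools and none was higher. Of all tested genes 18.8% were called lower and 14% higher. The median log2 difference of these 8 markers was -1.43, or -0.47 with the spike-in scaling described next, where Hoxb7 turned to 0.26. Markers of other kidney cells were present in both groups. These are bulk RNA pools, in which fewer cells of a type and less RNA per cell cannot be told apart. The direction of small changes depends on scaling. After loess normalization the median change of all tested probes was near 0, with each array centred on its median it was 0.23, and with the 10 spike-in control probes as the reference it was 0.95. Changes below are after loess unless stated, and where a gene that is named as lower turns above 0 with the spike-in scaling, this is given. Nothing says that the pools came from separate litters, so p-values measure only the spread between these pools.

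Many potassium channel genes gave no usable signal. A probe was tested if every array of the WT group, or every array of the MUT group, had it well above background in Cy5. By this filter 51 of 95 genes (53.7%) were tested with 59 probes, against 14585 of 20887 named genes (69.8%). Another 11 genes were well above background on some arrays only, and 33 were not on any array. Between 42 and 45 Kcn genes were detected on each WT array and between 52 and 57 on each MUT array, so the groups did not overlap in this count either. MUT arrays were above WT arrays for all probes too, although the order of arrays within each group differed between the counts. The part of overall signal in the Kcn count was not tested. On all 3 arrays of the group, 39 genes were detected in WT and 49 in MUT. Of all 20887 named genes, 13616 were detected in this way in WT and 14428 in MUT.

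**Figure D1:**
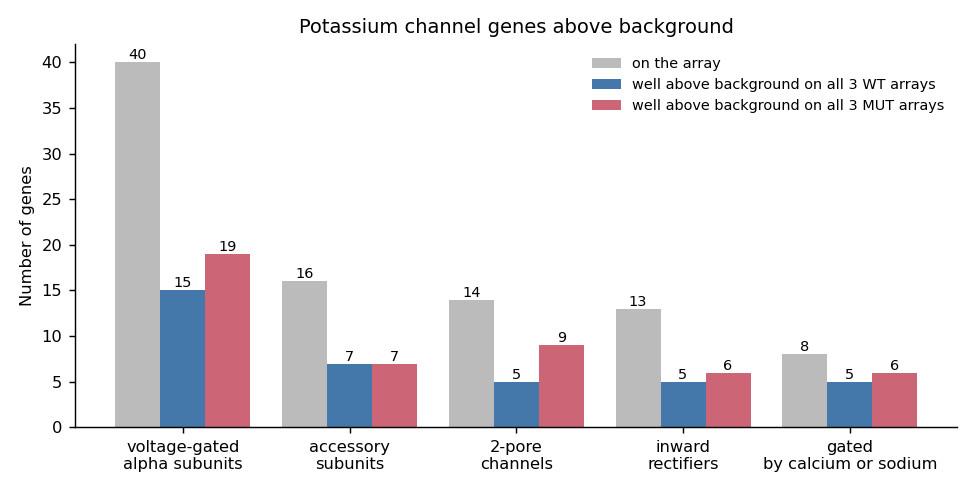
Number of Kcn genes in each class (grey, genes on the array), and number well above background in Cy5 on all 3 WT arrays (blue) and on all 3 MUT arrays (red). Of 40 voltage-gated alpha subunits, 15 were detected in WT and 19 in MUT pools, and of 14 channels with a pair of pore domains, 5 were detected in WT and 9 in MUT pools. Of all 20887 named genes, 13616 were detected in WT and 14428 in MUT pools.

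By class, 20 of 40 voltage-gated alpha subunits, 9 of 14 Kcnk genes, 8 of 16 accessory subunits, 6 of 13 inward rectifiers and 6 of 8 calcium-gated or sodium-gated channels were tested. Genes not detected on any array included Kcne1 (a partner of Kcnq1) and Kcnj11 (the pore of the ATP-sensitive channel of pancreatic islets). Kcnj2 and Kcnmb1 (the smooth muscle subunit of the large-conductance channel) were also among them. Kcnj2 and Kcnmb1 were chosen after their values were seen. A probe below background gives no evidence that its gene is silent. Kcna1, Kcnb2, Kcnk15, Kcnmb2 and Kcnt2 were well above background on all 3 MUT arrays and on no WT array. Kcnip4 was the one gene with the opposite pattern.

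Of the 51 tested genes, 22 changed at an adjusted p under 0.05 (limma, Benjamini-Hochberg over all 29002 tested probes), 12 higher and 10 lower in MUT pools. Of all tested probes 26.1% were called. The 22 genes are 43.1% of the Kcn genes, where 32.8% of all 14585 tested genes were called. The share called higher was 23.5%, against 14% of all genes, and the share called lower was 19.6%, against 18.8%. For 25 genes the WT and MUT pools did not overlap, where 52.5% of all genes did so, and 5 genes (9.80%) were called and at least 2-fold changed, against 8.6%. The median change of the Kcn genes was 0.11, against -0.02 over all tested genes. With spike-in scaling, 37 Kcn genes were called higher and 2 lower, beside 61.4% and 1.14% of all genes. With median centring 12 were higher and 5 lower, beside 18.3% and 6.33%. The filter admits probes above background in a single group, which favours calls toward that group, and more Kcn genes passed by MUT than by WT arrays. Among the 37 Kcn genes well above background on all 6 arrays, 8 were called higher and 8 lower, with 6905 of 25225 probes called.

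**Figure D2:**
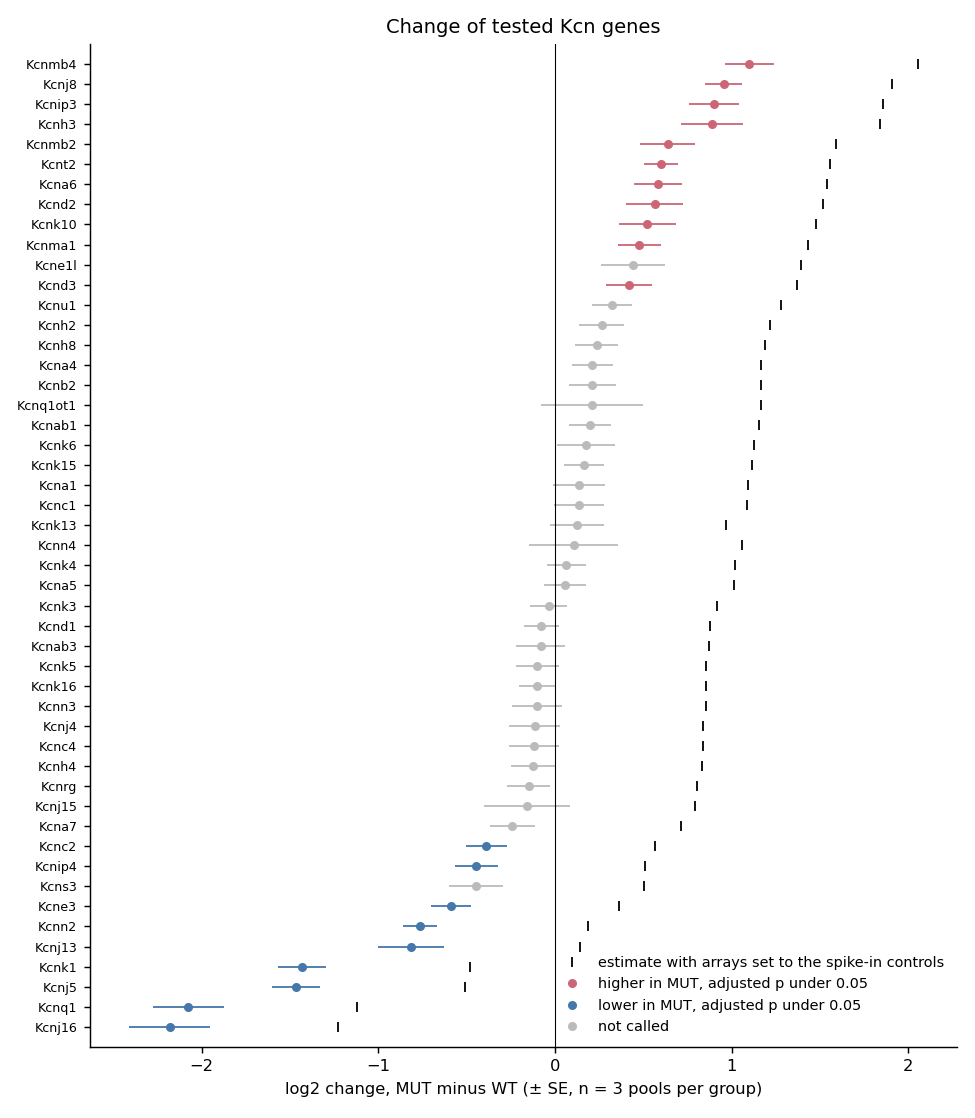
Change of 49 of the 51 tested Kcn genes, as log2 MUT minus WT on the horizontal axis with bars of ± SE from limma (3 pools per group), sorted by size. Red and blue mark 11 genes called higher and 9 called lower, grey marks genes not called, and black ticks give the same estimate with spike-in scaling, where only Kcnj16, Kcnq1, Kcnj5 and Kcnk1 stay below 0.

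The row of the slide could not be separated fully from the groups, because row 2 held WT pools alone. A fit with row as a block compares the MUT pools with WT pool 1 inside row 1, which is 1 array of that RNA against itself, so its spread is taken from the other arrays. In that fit 7 of the 51 genes were called: Kcnj8 and Kcnmb4 higher, and Kcnj16, Kcnq1, Kcnj5, Kcnk1 and Kcnn2 lower. Leaving out WT pool 3 left 11 calls, of which 5 were higher and 6 lower. Leaving out WT pool 2 left 7 calls that were higher. The size of the change in dim genes depends on background handling. With the log ratios of the authors' scanner software, which add no offset, Kcnt2 was at 3.40, Kcnj8 at 1.93, Kcnh3 at 1.44 and Kcnma1 at 1.10, where the offset of 50 used here gave 0.60, 0.96, 0.89 and 0.48. Among genes that fell, the same ratios gave -2.03 for Kcnip4, -1.52 for Kcnn2, -1.38 for Kcnj13 and -0.94 for Kcne3. Kcnd2, Kcnk10 and Kcnmb2 were larger in those ratios, at 1.39, 1.48 and 1.71, but were not called (limma adjusted p = 0.0578, 0.084 and 0.0623). Kcnt2 and Kcnmb2 were well above background on no WT array and Kcnip4 on no MUT array. The sizes of these 3 genes therefore rest on background signal in 1 group.

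Kcnj16, Kcnq1, Kcnj5 and Kcnk1 were the genes called lower by at least 2-fold. Kcnj16 encodes an inward rectifier subunit that pairs with the Kcnj10 product in the basolateral membrane of the distal nephron and collecting duct. WT pools 1 to 3 had log2 ratios of 0.21, -0.57 and 0.21, and MUT pools 1 to 3 of -2.32, -2.41 and -1.96. All MUT pools lay far below all WT pools, and WT pool 2 was the lowest WT pool. The change was -2.18 ± 0.23 (SE, n = 3 pools per group, limma adjusted p = 0.000666), a 4.53-fold lower level in MUT pools, and -1.23 with the spike-in controls. Kcnj10, its partner, which is left out of the set, changed by -2.74 ± 0.21 (SE, limma adjusted p = 0.000365).

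Kcnq1 encodes a voltage-gated pore that works with Kcne subunits in epithelia and heart. In WT pools 1 to 3 it was at 0.19, -0.15 and 0.28 (log2 ratio), whereas MUT pools 1 to 3 were at -2.22, -2.13 and -1.55. The groups did not overlap, and MUT pool 3 was the highest of the MUT pools. It was 4.21-fold lower in MUT pools (log2 -2.07 ± 0.20 SE, n = 3 per group, limma adjusted p = 0.000526), and at -1.12 with the spike-in controls. Kcnq1ot1, a noncoding RNA made from the opposite strand of the Kcnq1 locus, was not called at 0.21 ± 0.29 (SE, limma adjusted p = 0.628). Its MUT pools were at -0.51, 0.58 and 0.66 and its WT pools at 0.15, 0.07 and -0.12, so MUT pool 1 lay apart from the other MUT pools. Without MUT pool 1 Kcnq1ot1 was called higher, at 0.58 (limma adjusted p = 0.00397). A dimmer probe of Kcnq1ot1 was at 0.06 with all pools (limma adjusted p = 0.843). Kcne3, an accessory subunit that holds the Kcnq1 pore open, fell by 0.59 ± 0.11 (SE, limma adjusted p = 0.00746), and its other probe was at -0.59 as well. With the spike-in controls Kcne3 turned to 0.36, which was not called.

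Kcnj5 encodes an inward rectifier that G proteins open. The log2 ratios of WT pools 1 to 3 were 0.25, -0.10 and 0.27, and those of MUT pools 1 to 3 were -1.44, -1.36 and -1.18. The MUT pools were close to one another and all below the WT pools. The change was -1.47 ± 0.14 (SE, n = 3 per group, limma adjusted p = 0.000487), or 2.76-fold lower, and -0.51 with the spike-in controls, which was not called. Kcnk1 encodes a background potassium channel found in many epithelia. WT pools 1 to 3 were at 0.05, 0.08 and 0.12 (log2 ratio), set against -1.49, -1.49 and -1.07 in MUT pools 1 to 3. The WT pools were close together, with an SD of 0.03, and the groups did not overlap. It was 2.70-fold lower in MUT pools (log2 -1.43 ± 0.13 SE, limma adjusted p = 0.000505), and at -0.48 with the spike-in controls, which was not called.

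**Figure D3:**
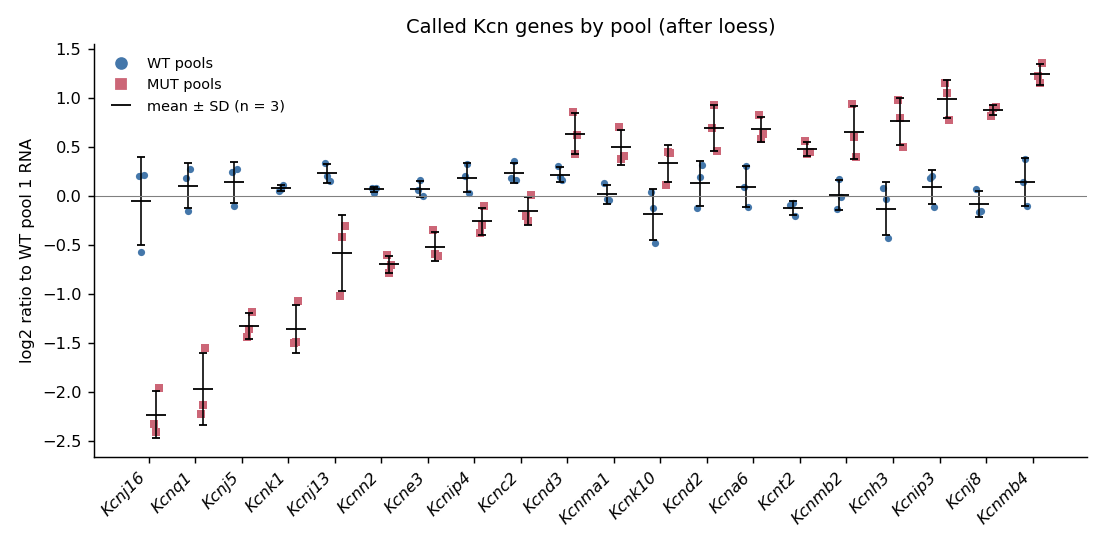
Log2 ratio to WT pool 1 RNA, after loess, of 20 of the 22 called Kcn genes in WT pools (blue circles) and MUT pools (red squares), with black bars for mean ± SD (n = 3). Kcnj16, Kcnq1, Kcnj5 and Kcnk1 lie at -1.07 or lower in every MUT pool, and Kcnmb4 lies at 1.15 or higher in every MUT pool. With spike-in scaling, the other 5 genes shown as lower turn above 0.

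Of the 5 genes called and at least 2-fold changed, all but Kcnq1 matched a promoter entry. For the 2 inward rectifiers and for Kcnmb4, the gene that rose, the 250 bases before their start sites are shown from RefSeq (GRCm38.p6), read 5′ to 3′ on the strand of the gene. Kcnj16 has 4 listed start sites, of which the first is printed. It lies at chr11:110967783-110968032 on the + strand, Kcnj5 at chr9:32344345-32344594 on the - strand and Kcnmb4 at chr10:116473524-116473773 on the - strand. Capitals mark 2 searched motifs on either strand, GTTAAT, a core motif of the renal epithelial factor HNF1, and GGGCGG, the GC box.
Kcnj16: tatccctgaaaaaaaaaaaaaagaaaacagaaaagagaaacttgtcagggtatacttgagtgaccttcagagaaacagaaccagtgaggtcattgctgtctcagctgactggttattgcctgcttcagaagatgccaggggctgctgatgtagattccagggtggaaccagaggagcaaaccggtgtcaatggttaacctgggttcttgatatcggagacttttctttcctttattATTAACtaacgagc
Kcnj5: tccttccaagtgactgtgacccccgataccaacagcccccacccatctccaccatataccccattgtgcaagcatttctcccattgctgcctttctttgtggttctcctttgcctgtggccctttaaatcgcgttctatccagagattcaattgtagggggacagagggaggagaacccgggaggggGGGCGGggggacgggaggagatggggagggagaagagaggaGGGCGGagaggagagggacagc
Kcnmb4: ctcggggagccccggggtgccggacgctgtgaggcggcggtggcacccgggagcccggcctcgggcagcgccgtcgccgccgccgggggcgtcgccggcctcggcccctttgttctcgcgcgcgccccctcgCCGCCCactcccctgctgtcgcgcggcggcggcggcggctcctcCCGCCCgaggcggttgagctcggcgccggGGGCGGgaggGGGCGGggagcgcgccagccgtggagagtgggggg

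The printed Kcnj16 window holds 1 match to GTTAAT, read as ATTAAC on this strand, which begins 14 bases before the start. The windows of its other listed start sites hold no GTTAAT, and the last of them holds 1 GC box. The Kcnj5 window holds 2 GC boxes and that of Kcnmb4 holds 4, while neither holds GTTAAT. The window of Kcnk1 holds neither motif. The HNF1 motif is present in 6.43% of all 32851 windows of this length and the GC box in 32.7%. Counted by gene, where a gene can have several windows, 3 of the 39 tested Kcn genes with a window have the HNF1 motif and 23 have a GC box. Counts by gene cannot be set against the shares of windows, because several windows raise the chance of a match. Of the 17 called genes among them, 1 (Kcnj16) has the HNF1 motif and 9 have a GC box. These matches describe letters in a window and no binding was measured.

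The other inward rectifiers did not move as one. Kcnj13, an inward rectifier of epithelia that moves few ions per channel, fell by 0.81 ± 0.19 (SE, limma adjusted p = 0.0158). Its MUT pools were at -1.02, -0.41 and -0.31 against 0.34, 0.20 and 0.16 in WT pools, so MUT pool 1 was the lowest. Its other tested probe fell by 1.12, and with the spike-in controls the brighter probe turned to 0.14, which was not called. Without WT pool 1 or WT pool 3 Kcnj13 was no longer called (limma adjusted p = 0.0623 and 0.0548).

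Kcnj15, an inward rectifier related to Kcnj10, was not called, at -0.16 ± 0.24 (SE, limma adjusted p = 0.667). Its log2 ratios were -0.24, -0.69 and -0.20 in WT pools and -0.01, -0.65 and -0.94 in MUT pools, so the groups overlapped. In this class 3 genes fell and 1 rose, out of 6 tested (50% and 16.7%, against 18.8% and 14% of all tested genes).

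Kcnj8 was the inward rectifier that rose. It forms the pore of the ATP-sensitive potassium channel of vascular smooth muscle and pericytes. Log2 ratios of 0.07, -0.16 and -0.15 in WT pools 1 to 3 stood against 0.82, 0.90 and 0.91 in the MUT pools. The MUT pools were nearly equal (SD 0.05) and did not overlap with the WT pools. The rise was 0.96 ± 0.11 (SE, n = 3 per group, limma adjusted p = 0.000837), or 1.94-fold, from a probe well above background on 2 of 3 WT arrays.

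Sulfonylurea receptors surround that pore, and both genes of this kind rose. Abcc9, the receptor of the vascular channel, rose by 1.10 ± 0.21 (SE, limma adjusted p = 0.00734), with WT pools at 0.06, -0.44 and -0.63 and MUT pools at 0.45, 1.01 and 0.84. Abcc8, the receptor of the islet and neuronal channel, rose by 0.67 ± 0.16 (SE, limma adjusted p = 0.0196). Markers of mural cells, which carry this channel in vessels, were tested for 8 of 8 genes, of which 2 rose (Rgs5 and Acta2) and 1 fell (Ren1, which turned to 0.35 with the spike-in controls). Their summed normalised Cy5 intensity ranged from 6631 to 10615 in WT pools and from 12633 to 14500 in MUT pools. Renal stroma markers rose in 7 of 8 cases, with sums of 8646 to 23813 in WT pools and 43933 to 63864 in MUT pools. Of all tested genes 14% were called higher and 18.8% lower. No marker of either list was below background on all arrays. The part of these cells in the rise of Kcnj8 and Abcc9 was not tested.

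The 3 tested Kcn genes of the large-conductance channel, which voltage and calcium open together, rose. Its subunit genes Kcnmb1 and Kcnmb3 were not detected on any array. Of its gamma subunits, Lrrc38 was not called at -0.09 ± 0.12 (SE, limma adjusted p = 0.619), and Lrrc52 and Lrrc55 were not detected on any array. Kcnmb4, an accessory beta subunit known from neurons and also found in kidney, had log2 ratios of 0.15, 0.38 and -0.10 in the WT pools, while MUT pools 1 to 3 reached 1.22, 1.15 and 1.36. Every MUT pool was above every WT pool. The rise was 1.10 ± 0.14 (SE, n = 3 per group, limma adjusted p = 0.00143), or 2.14-fold. A dimmer probe of the same gene rose by 0.30 ± 0.09 (SE, limma adjusted p = 0.046), and the mean of both probes rose by 0.70.

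Kcnma1, the pore of the channel, rose by 0.48 ± 0.12 (SE, limma adjusted p = 0.0239). Its other probe was well above background on all 3 MUT arrays and no WT array, so it was tested through the MUT arrays alone. That filter favours a rise, so the call of this probe (limma adjusted p = 0.00621) is no separate support. Without WT pool 2 or WT pool 3 Kcnma1 was no longer called (limma adjusted p = 0.0743 and 0.102). Kcnmb2, another beta subunit, was detected on no WT array, so it was tested through its MUT arrays alone, a filter that favours a rise. It was called higher (limma adjusted p = 0.0205). Its call was lost without WT pool 1, WT pool 3 or MUT pool 2 (limma adjusted p from 0.0519 to 0.0807).

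The other channels that calcium or sodium opens did not share a direction. Kcnn2, a small-conductance calcium-activated channel, fell by 0.76 ± 0.10 (SE, limma adjusted p = 0.00136). Its log2 ratios were 0.09, 0.03 and 0.08 in WT pools and -0.61, -0.78 and -0.71 in MUT pools, a tight separation, but with the spike-in controls it turned to 0.19, which was not called. Kcnt2, a sodium-activated channel, was well above background on no WT array, so it was tested through its MUT arrays alone. Its log2 ratio was called higher in MUT pools (limma adjusted p = 0.00379), the direction that this filter favours. Its level in MUT pools was at least 1.37-fold higher, a bound that was not itself tested. This bound sets the MUT mean in Cy5 against, on each WT array, the lowest signal of any probe above background or the probe's own where that is higher, and is open to dye bias since no dyes were swapped. Kcnn4, the intermediate-conductance channel of epithelia and blood cells, was not called at 0.11 ± 0.25 (SE). Its WT pools were at 0.00, 1.09 and 0.27 and its MUT pools at 0.63, 0.49 and 0.56, so WT pool 2 stood above all MUT pools and the others below.

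Voltage-gated alpha subunits gave 5 rises and 3 falls out of 20 tested (25% and 15%, against 14% and 18.8% of all tested genes). Kcnh3, of the ether-a-go-go family, rose by 0.89 ± 0.17 (SE, limma adjusted p = 0.00839), with WT pools at 0.08, -0.03 and -0.43 and MUT pools at 0.98, 0.79 and 0.50. The WT and MUT pools of Kcnh3 did not overlap.

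Kcna6, a Shaker-type channel, rose by 0.58 ± 0.13 (SE, limma adjusted p = 0.016). Without WT pool 1 or WT pool 3 its adjusted p was 0.0569 and 0.0698. Kcnd2 and Kcnd3, which carry fast inactivating currents, rose by 0.56 ± 0.16 and 0.42 ± 0.13 (SE). Both passed narrowly (limma adjusted p = 0.0366 and 0.0478), and Kcnd2 was not called without any one of the WT pools or MUT pool 2 (limma adjusted p from 0.0601 to 0.119). Kcnd3 was not called without any one of WT pools 1 to 3, MUT pool 1 or MUT pool 3 (limma adjusted p from 0.057 to 0.163).

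Kcnip3, a calcium-binding protein that joins Kcnd pores, rose by 0.90 ± 0.14 (SE, limma adjusted p = 0.00321). Its log2 ratios were 0.18, 0.21 and -0.11 in WT pools and 1.15, 1.05 and 0.78 in MUT pools, with no overlap. Kcnip4, of the same family, went the other way. It was well above background on no MUT array, so it was tested through its WT arrays alone, which favours a fall. It was called lower in MUT pools (limma adjusted p = 0.0314). With the spike-in controls its fitted change turned to 0.51, which was not called. Without WT pool 1, WT pool 2, WT pool 3 or MUT pool 2 its adjusted p was between 0.0503 and 0.098.

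Kcnc2, a fast delayed rectifier known from neurons, fell by 0.39 ± 0.11 (SE, limma adjusted p = 0.0409), and with the spike-in controls it turned to 0.57, which was not called. It was not called without any one of the WT pools or MUT pool 2 (limma adjusted p from 0.0923 to 0.12). Of 8 markers of neurons and Schwann cells 6 were tested, and 1 of these rose (Elavl4, by 1.88). Of all tested genes 14% were called higher. The summed normalised Cy5 intensity of the 6 markers was 10463 to 14339 in WT pools and 15688 to 22851 in MUT pools. The part of such cells in these changes was not tested.

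Among 9 tested Kcnk genes, Kcnk1 fell and Kcnk10 rose, 11.1% each way against 18.8% and 14% of all tested genes. Kcnk10, a channel that stretch and lipids open, rose by 0.52 ± 0.16 (SE, limma adjusted p = 0.0469), from a probe well above background on 1 of 3 WT arrays. It was not called without WT pool 2, WT pool 3, MUT pool 2 or MUT pool 3 (limma adjusted p from 0.0938 to 0.16). Kcnk5, an alkali-activated channel known from the proximal tubule, was not called, at -0.10 ± 0.12 (SE, limma adjusted p = 0.582). Its pools overlapped, with WT at -0.13, -0.50 and -0.26 and MUT at -0.33, -0.48 and -0.38. Kcnk15 was well above background on all 3 MUT arrays and no WT array, but was not called (limma adjusted p = 0.317, or 0.216 with the log ratios of the authors' scanner software). The fit of Kcnk13 used 2 MUT pools, because its spot on the array of MUT pool 1 was an outlier.

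The brightest genes that were not called included Kcns3, a subunit without current of its own, at -0.45 ± 0.15 (SE, limma adjusted p = 0.0645). Its pools did not overlap, and without WT pool 2, which was at -0.45 where the other WT pools were at 0.07 and 0.02, it was called lower (limma adjusted p = 0.0125). With the spike-in controls it turned to 0.51, which was not called. Kcna4, a fast inactivating channel, was at 0.21 ± 0.12 (SE), Kcna7 at -0.24 ± 0.13 (SE) and Kcnd1 at -0.08 ± 0.10 (SE). Kcne1l, an accessory subunit of the Kcne family, was at 0.44 ± 0.18 (SE, limma adjusted p = 0.11), and was called higher without WT pool 1 or MUT pool 1 (limma adjusted p = 0.0383 and 0.0474). A dimmer probe of Kcne1l was at 0.08 ± 0.10 (SE, limma adjusted p = 0.571) with all pools. Kcna1 and Kcnb2, detected on all MUT arrays and no WT array, were not called (limma adjusted p = 0.52 and 0.281, or 0.125 and 0.0573 with the log ratios of the authors' scanner software).

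Genes that work with these channels were described from 2 lists. Channel partners outside the Kcn symbols were tested for 10 of 15 genes, and besides Abcc9 and Abcc8 only Tmem38a, of an intracellular cation channel, was called. Tmem38a fell by 0.60 ± 0.10 (SE, limma adjusted p = 0.00492) and turned to 0.35 with the spike-in controls. The Kv partner genes Dpp6 and Dpp10 were at 0.12 ± 0.10 (SE) and 0.21 ± 0.11 (SE) and were not called. The median of the 10 genes was 0.02, and of all tested genes 32.8% were called.

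Regulators of renal potassium secretion moved downward as a list, with 13 of 15 tested genes lower, none higher and a median of -1.36. Of all tested genes 18.8% were called lower and 14% higher. With the spike-in controls the median of the list was -0.41. There 3 of the regulators, Atp1b1 and Scnn1a included, were called lower, while 1, Oxsr1, was called higher. Sgk1, the kinase that aldosterone induces, had log2 ratios of 0.12, -0.09 and 0.14 in WT pools and -1.47, -1.79 and -1.71 in MUT pools, with no overlap. It fell by 1.71 ± 0.12 (SE, limma adjusted p = 0.000365). Wnk4, a kinase of the distal tubule, fell by 1.41 ± 0.17 (SE), and Nedd4l, a ubiquitin ligase that removes sodium channels from the membrane, by 1.36 ± 0.12 (SE). Atp12a and Atp4a, pumps that exchange protons for potassium, fell by 1.60 ± 0.18 (SE) and 1.21 ± 0.18 (SE).

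**Figure D4:**
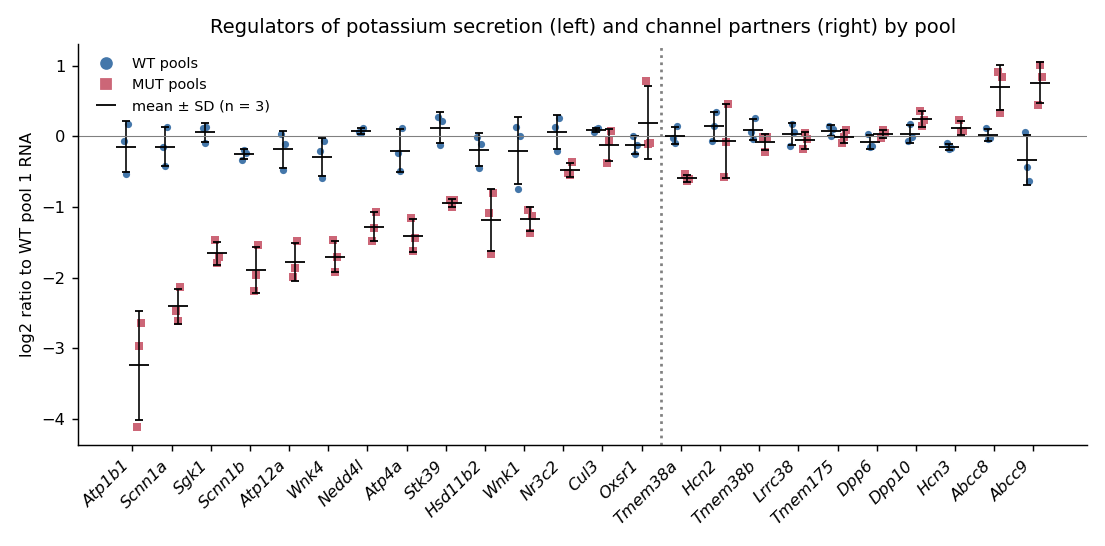
Log2 ratio to WT pool 1 RNA, after loess, of 14 of the 15 tested regulators of potassium secretion (left of the dotted line) and the 10 tested channel partners (right) in WT pools (blue circles) and MUT pools (red squares), with black bars for mean ± SD (n = 3). Abcc8 and Abcc9 are higher in every MUT pool than in any WT pool, and 12 of the regulators shown were called lower. Of the genes called lower, Tmem38a and Nr3c2 turn above 0 with the spike-in controls.

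Marker lists of distal kidney epithelia were lower in MUT pools. Of all tested genes 18.8% were called lower and 14% higher. Principal cell markers were lower in 7 of 7 tested cases, with a summed normalised Cy5 intensity of 31552 to 32521 in WT pools and 7578 to 9920 in MUT pools. Of this list Scnn1g was the one gene not well above background on any array. Thick ascending limb and distal tubule markers were lower in 8 of 8 cases, with sums of 37093 to 74001 in WT pools and 8376 to 10614 in MUT pools. Intercalated cell markers were also lower in 8 of 8 cases, with sums of 15811 to 24866 and 3321 to 4138. The medians of these lists with the spike-in controls were -0.95, -1.06 and -1.50. The part of cell composition in the falls of Kcnj16, Kcnq1, Kcnj5 and Kcnk1 was not tested. Nephron progenitor markers were higher in 5 of 6 cases, with sums of 10054 to 13165 in WT pools and 20636 to 41304 in MUT pools, and endothelial markers were lower in 6 of 8 cases, with a median that turned from -0.75 to 0.21 with the spike-in controls. Leukocyte markers were higher in 5 of 7 tested cases and lower in 1 (Ptprc, which turned to 0.53 with the spike-in controls), and erythroid markers were lower in 4 of 4 tested cases. Proximal tubule markers were lower in 3 of 7 cases, with a median of -0.36 that turned to 0.60 with the spike-in controls.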

How the data were processed

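RNA of each pool was labelled from 0.5 µg and hybridised to Agilent mouse arrays, per the labels' protocols. The authors deposited scanner files that hold median spot intensity and median local background for each dye; the submitters' processing notes name Agilent Feature Extraction (10.7.3.1). They also hold a log10 ratio of Cy5 over Cy3, and the deposited value table repeats that log10 ratio to within 0.00499, with a median of 0 on each array; it served as an alternative. The genome build of the array design is mm9, per the file headers, so no probe coordinates are given.

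The log2 ratios were computed from the intensities with normexp (offset 50) and loess, control spots at weight 0. Control spots and outlier spots were left out, and spots of a probe were averaged. A probe counts as well above background where most of its spots carry that flag. Names came from RefSeq accessions matched without versions to GRCm38.p6 (27509 probes). A gene is represented by its brightest tested probe, so its value is that of 1 probe; 8 Kcn genes had several. Normexp with an offset shrinks folds of dim probes. MUT was tested against WT with limma 3.58.1 in R 4.3.3, with data.table (version 1.17.8), and plots used Python 3.11.15 with matplotlib 3.10.9. Simulated data (29002 probes) had 67 probes shifted by a log2 of 0.5, another 67 by 1 and 66 by 2. The test recovered 1.49%, 38.8% and 83.3% with median estimates of 0.36, 0.78 and 1.53, and 3 of 85 calls were false. Far fewer probes were shifted than the 26.1% called in the data, and the noise was independent between probes and arrays. These shares therefore need not hold for the real comparison.

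The members and lists were chosen with earlier results of these data known. A few genes are counted but not reported here by name. Otherwise, named genes are all called Kcn genes, those detected on all arrays of one group and none of the other, the 8 brightest tested genes not called, and Kcnj15, Kcnj16, Kcnj8, Kcnj11, Kcnma1, Kcnn4, Kcnk1, Kcnk5, Kcnq1 and Kcne1. Kcnj2, Kcnk13, Kcnmb1 and Kcnmb3 were named outside this rule. Alternatives changed background correction, scaling, channel, filter, probe choice, blocks, moderation, array weights and the pools included.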

Additional observations from a re-analysis of the deposited data

How the results depend on the processing

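Kcnj16, Kcnq1 and Kcnmb4 kept their direction and call under all alternatives that were run, and Kcnj8 under all in which it was tested. Kcnj8 was not tested where probes had to be well above background on all 6 arrays. Of the 20 called genes described, 16 lost the call and 5 changed sign under at least 1 alternative. Of the 22 calls, 12 higher and 10 lower, the spike-in controls gave 39, 37 and 2, with 18935 probes called in all against 7584. Slide row as a block gave 7 calls, 2 higher and 5 lower, with 2194 probes called. Median centring gave 5 lower. Leaving out 1 pool gave 11 to 23 calls, 5 to 13 higher and 6 to 10 lower, with 3831 to 9536 probes called. The number of detected genes was 51, with 62 on at least 1 array and 37 on all 6. Of the genes in the naming rule, the log2 change turned positive with the spike-in controls for Kcna7 (0.71), Kcnc2 (0.57), Kcnd1 (0.88), Kcne3 (0.36), Kcnip4 (0.51), Kcnj13 (0.14), Kcnj15 (0.80), Kcnk5 (0.85), Kcnn2 (0.19) and Kcns3 (0.51). With median centring it turned positive among them for Kcna7 (0.020), Kcnd1 (0.18), Kcnj15 (0.12) and Kcnk5 (0.14). Kcna1 turned to -0.0082 with slide row as a block, Kcnn4 to -0.12 without WT pool 1 (-0.12 to 0.42 over the pools left out) and Kcnj15 to 0.046 without MUT pool 3, with a range of -0.42 to 0.046 over the pools left out. The cause of these turns was not tested. With pool number as a replicate block 18 genes were called, 10 higher and 8 lower. Deviations of same-numbered pools correlated at 0.14, 0.07 and 0.20, and each pool correlated best with its own number, a hint from the data and not from the design. Signal near background limits Kcna1, Kcnb2, Kcnk15, Kcnmb2, Kcnt2 and Kcnip4 to a bound in 1 group.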
